A study of Mus musculus with 12 samples.

Results

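The response of control microglia to MPTP was taken from 3 of the 12 columns of the series, WT PBS 1, WT PBS 2 and WT MPTP 1, and covered 10609 of 21125 genes, those with at least 1 FPKM in 2 of these 3 columns. FPKM, a read count scaled by transcript length and by the size of the library, is the unit the values were taken to have. WT is the submitters' name for mice of genotype Ppargc1a FF, in which the conditional Ppargc1a allele is present in all groups, and the deficient mice are named KO. Microglia were sorted by flow cytometry from the midbrain of mice given MPTP or PBS, all 6 weeks after tamoxifen, which the control mice also received. The deficient mice also carry CreER, a tamoxifen-dependent recombinase, which the control mice lack. The promoter that drives it, the strain and the ages are not stated in the labels. The labels do not tie samples to separate animals, and the spread between profiles may be technical.

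The other columns of the control groups added no measurement of their own. WT MPTP 2 was 1.02 times WT MPTP 1 in all but 28 of 67355 rows, and the third column of each group was the mean of the other two times 0.99 plus 0.1, with 1 row of WT PBS 3 as the exception. The PBS pair therefore supplied the only spread, and the single MPTP profile was assumed to vary like that pair. Every level below is the value of 1 profile, with no replicate of the MPTP profile. A gene was described as changed only where WT MPTP 1 lay outside both PBS profiles and limma's adjusted p, over all genes tested, was under 0.05. An exact permutation of 1 profile against 2 cannot give a p under 0.3333. The rows that broke the relations in WT MPTP 2 or in KO MPTP 1 belonged to 42 genes, called departing genes here, of which 40 were tested. How the values of these rows arose was not tested. Depth is unknown, and the 3 columns summed to 401734, 411692 and 425554 FPKM.

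Microglia are the resident macrophages of the brain. MPTP is converted in the brain to a metabolite that enters dopaminergic neurons through their transporter and blocks complex I of the respiratory chain, and activated microglia with raised cytokine and nitric oxide production are well known around the dying neurons. Ppargc1a encodes PGC-1α, a coactivator that raises transcription of nuclear genes for mitochondrial proteins and antioxidant enzymes. It acts through factors such as NRF1 and nuclear receptors, and through TFAM, which maintains and transcribes the mitochondrial genome.

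The sorted cells carried macrophage genes at nearly the same level in each profile. Csf1r, the receptor for the microglial survival factor, was at 120.11, 118.76 and 121.06 FPKM in WT PBS 1, WT PBS 2 and WT MPTP 1, the order used for all triplets below, and the 12 macrophage markers summed to 1959.9, 2018.7 and 2000.6 FPKM. Several genes that mark resting microglia were low or near 0, and 16 of 28 such genes were high enough to be tested. P2ry12, a purine receptor, was at 0.16, 0.19 and 0.20 FPKM, Tmem119 at 1.92, 1.97 and 2.28, Sall1, a transcription factor of microglial identity, at 0 in each, and Cx3cr1, the fractalkine receptor, at 0.06, 0.06 and 0.05. Of the neuron markers, only Syt1, Tubb3, Stmn2 and Gad2 had deposited rows, and they summed to 0.0 FPKM in each profile. The lymphocyte markers found summed to between 0.2 and 0.4. Among oligodendrocyte markers Cnp was at 7.41, 8.44 and 8.02 FPKM and Mbp at 0.98, 0.83 and 1.11, while Sox10 reached at most 0.04. Astrocyte markers summed to between 85.5 and 90.9 FPKM, nearly all from the glycolytic gene Aldoc, while Gfap reached at most 0.03. Endothelial markers summed to between 86.3 and 90.3, nearly all from Flt1, while Cdh5 was at 0. Monocyte markers summed to 318.8, 376.8 and 374.4 FPKM, nearly all from Chil3, while Ccr2 was at 0.02, 0.02 and 0.03. In sorted bulk samples, a change in the mix of cells and a change in RNA per cell cannot be told apart.

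MPTP left most genes near their PBS level. In all, 5 genes rose (0.0471% of 10609) and 22 fell (0.207%), and their log2 differences had sizes between 0.53 and 1.22. The genes that rose were Nos2, Il1b, Slc2a1, Tnf and S100a6, and those that fell included Sod1, Cebpb, Rela, Ppargc1a, Tfam and Ucp2. Of the 27 called genes, 18 were departing genes, all 5 that rose among them, and 14 of the 18 departed in WT MPTP 2 itself. With departing genes left out of the fit, 0 genes rose and 4 fell. Of these 4, Pla2g3 and a predicted gene passed the filter only through the PBS columns. In that fit 262 genes had an unadjusted p under 0.05. In the full fit that number was 283, or 2.67% of genes tested. Fits without 1 PBS profile took their spread from KO PBS 1 and KO PBS 2, so only their log2 differences are given here. Without WT PBS 1, log2 differences lay between 0.634 and 1.175 for the 5 rises and between -1.083 and -0.736 for the named falls. Without WT PBS 2 they lay between 0.731 and 0.984 and between -1.166 and -0.658. Quantile normalization left 0 calls higher and 1 lower, with 207 genes at an unadjusted p under 0.05.

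**Figure D1:**
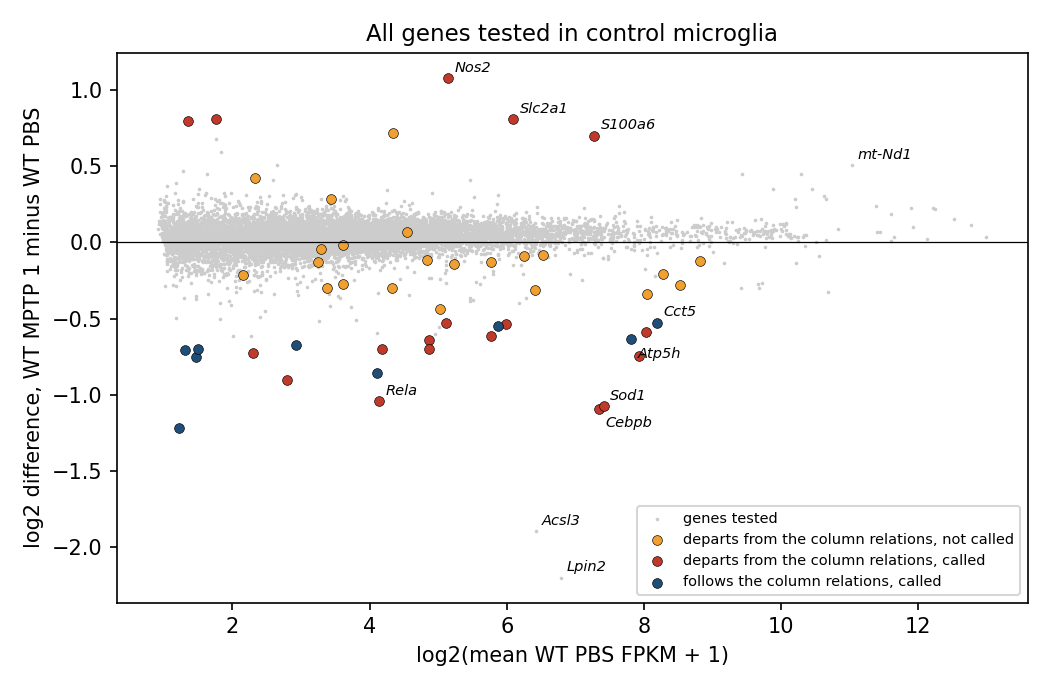
Log2 difference of WT MPTP 1 from the WT PBS mean, on log2(FPKM + 1), against the WT PBS level for the 10609 genes tested. Most genes lie close to 0, and 18 of the 27 called genes are departing genes.

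Among inflammatory genes, Il1b and Tnf rose together. Their RefSeq promoter windows are shown because these are the cytokine genes that were called, and each runs from 250 bases before to 50 bases after the start of transcription, on GRCm38.p6 and 5′ to 3′ on the minus strand, with matches to searched motifs in capitals. The Il1b window is chr2:129371090-129371389 and the Tnf window is chr17:35201958-35202257.
Il1b: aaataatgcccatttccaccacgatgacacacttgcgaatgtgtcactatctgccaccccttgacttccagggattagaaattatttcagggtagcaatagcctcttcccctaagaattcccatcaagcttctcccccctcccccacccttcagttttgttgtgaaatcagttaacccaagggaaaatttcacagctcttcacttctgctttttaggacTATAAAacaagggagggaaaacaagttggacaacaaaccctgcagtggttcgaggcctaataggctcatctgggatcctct
Tnf: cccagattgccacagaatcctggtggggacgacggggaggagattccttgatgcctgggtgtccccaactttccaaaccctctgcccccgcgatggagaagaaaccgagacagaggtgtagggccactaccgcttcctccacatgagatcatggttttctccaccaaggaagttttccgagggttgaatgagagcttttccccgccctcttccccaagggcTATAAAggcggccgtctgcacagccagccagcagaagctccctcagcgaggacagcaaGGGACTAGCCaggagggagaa
Both windows held the TATA box TATAAA, which started 31 bases before the start site in Il1b and 29 bases before it in Tnf. TATAAA was found in 13.6% of 32851 promoter windows. A κB match, GGGANNNNCC, stood in Tnf 29 bases after the start site and in 20.7% of all windows, and none was found in the Il1b window. AP-1 (TGANTCA) and C/EBP (TTGCNNAA) motifs, searched on both strands like the others, were in neither window and in 7.81% and 10.8% of all windows.

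Il1b, which encodes the cytokine interleukin-1β, was at 2.56, 2.19 and 4.91 FPKM. The MPTP profile lay above both PBS profiles, and the log2 difference was 0.81 ± 0.10 (SE, adjusted p = 0.0116). Tnf, the gene of tumour necrosis factor, was at 1.39, 1.73 and 3.43 FPKM, 2.20 times the PBS mean, with a log2 difference of 0.79 ± 0.11 (adjusted p = 0.0147). Both are low levels for these cells, since Il1a, the sister cytokine gene, was at 29.65, 27.86 and 31.34 FPKM and was not called. Il1rn, the receptor antagonist, was at 3.25, 3.58 and 4.16 FPKM without passing the test. Of the 14 cytokine genes tested, 2 rose and 0 fell, against 0.0471% and 0.207% of all genes tested. Of the 14, 7 lay above both PBS profiles against 50.1% of all genes tested, and 3 lay below both against 13.9%. The median log2 difference of the list was 0.05, against 0.04 over all genes tested. Il10 and Il12b stayed under the level tested, with at most 0.03 FPKM for Il10 and 0.01 for Il12b.

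Nos2, the inducible nitric oxide synthase, showed the largest rise of the called genes. It was at 36.66, 32.00 and 73.51 FPKM, 2.14 times the PBS mean, with a log2 difference of 1.08 ± 0.09 (adjusted p = 0.000973). Arg1, whose product competes with nitric oxide synthases for arginine, was far higher at 2792.96, 2769.23 and 2922.88 FPKM and was not called. Ptgs2, which makes prostaglandins, was at 7.03, 3.15 and 3.57 FPKM, so the MPTP value fell between PBS profiles that were themselves far apart. Of 12 arginine and prostaglandin enzymes tested, 1 rose and 0 fell, against 0.0471% and 0.207% of all genes tested.

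No chemokine gene passed the test. Ccl2, a monocyte attractant and a departing gene, was at 15.19, 23.41 and 31.67 FPKM (adjusted p = 0.577). Ccl7, a relative that follows the column relations, was at 1.70, 3.08 and 4.32 FPKM (adjusted p = 0.842). In both genes the PBS pair was spread widely beside the MPTP difference. Ccl3 was at 38.39, 48.24 and 57.41 FPKM, and Ccl9 at 29.80, 28.47 and 36.75, where the PBS pair lay closer. Of the 10 members tested, 8 lay above both PBS profiles and 0 below, against 50.1% and 13.9% of all genes tested, and the median log2 difference was 0.30. With each column centred on the median log2 ratio it was 0.25, and 8 lay above both, against 28.2% of all genes tested. The only receptors of this list tested, Ccr1 and Cxcr4, were at 12.49, 10.86 and 13.22 FPKM and at 13.98, 12.24 and 12.67.

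S100a6, a calcium-binding protein gene of growing and stressed cells, was at 146.85, 161.15 and 250.64 FPKM (log2 difference 0.70 ± 0.09, adjusted p = 0.010). Its relative S100a8, a granulocyte and inflammation gene, was at 3.75, 4.35 and 5.75 FPKM (adjusted p = 0.577), and both are departing genes. The other S100 genes and the annexins stayed closer to PBS, such as S100a4 at 223.32, 239.87 and 241.02 FPKM. The granulocyte list summed to 25.8, 25.6 and 27.0 FPKM, most of it from Cxcr2, a chemokine receptor, at 21.55, 20.61 and 20.72. Ly6g was at 0 in both PBS profiles and 0.01 in the MPTP profile, and Mpo at 0 in each.

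Several transcription factor genes of macrophage activation fell. Rela, the gene of the NF-κB subunit p65, was at 16.16, 17.14 and 7.56 FPKM (log2 difference -1.04 ± 0.09, adjusted p = 0.000973). It was the only 1 of 20 NF-κB genes called, where 0.207% of all genes tested were called lower. Nfkb1, the partner subunit, was at 17.31, 16.63 and 18.40 FPKM. Nfkbia, the inhibitor IκBα and itself a κB target, was at 12.82, 11.81 and 14.35 FPKM and did not pass. Cebpb, a C/EBP factor of macrophage activation, was at 169.88, 152.85 and 75.13 FPKM (log2 difference -1.09 ± 0.09, adjusted p = 0.000973). Among 19 macrophage transcription factors tested it alone was called, beside the same 0.207% of all genes tested. Spi1, the PU.1 gene, was at 65.54, 70.77 and 74.29 FPKM. Nr4a1, an immediate early nuclear receptor, was at 3.89, 3.95 and 1.97 FPKM and fell (adjusted p = 0.0116). Of the other immediate early genes, Fos was at 1.66, 1.71 and 2.05 FPKM, and Dusp1, a MAP kinase phosphatase, at 2.77, 2.93 and 1.95 (adjusted p = 0.577). Rela, Cebpb and Nr4a1 are departing genes.

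Interferon, Toll-like receptor and presentation genes showed no call, and their counts stand beside 50.1% above both PBS profiles and 13.9% below for all genes tested. Of 18 type I interferon response genes tested, 6 lay above both PBS profiles and 8 below, with a median log2 difference of -0.02 that was -0.06 after centring. Irf7, a master regulator of the response, was at 1.90, 2.41 and 1.78 FPKM. Of 19 Toll-like receptor and adaptor genes, 12 lay above both and 2 below. Of 24 genes of disease-associated microglia, 14 lay above both and 1 below, and after centring these numbers were 10 and 9, against 28.2% and 29.1%. Spp1, the osteopontin gene, was at 3132.70, 3108.22 and 3559.05 FPKM, and Apoe at 3159.10, 3255.73 and 3288.65.

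**Figure D2:**
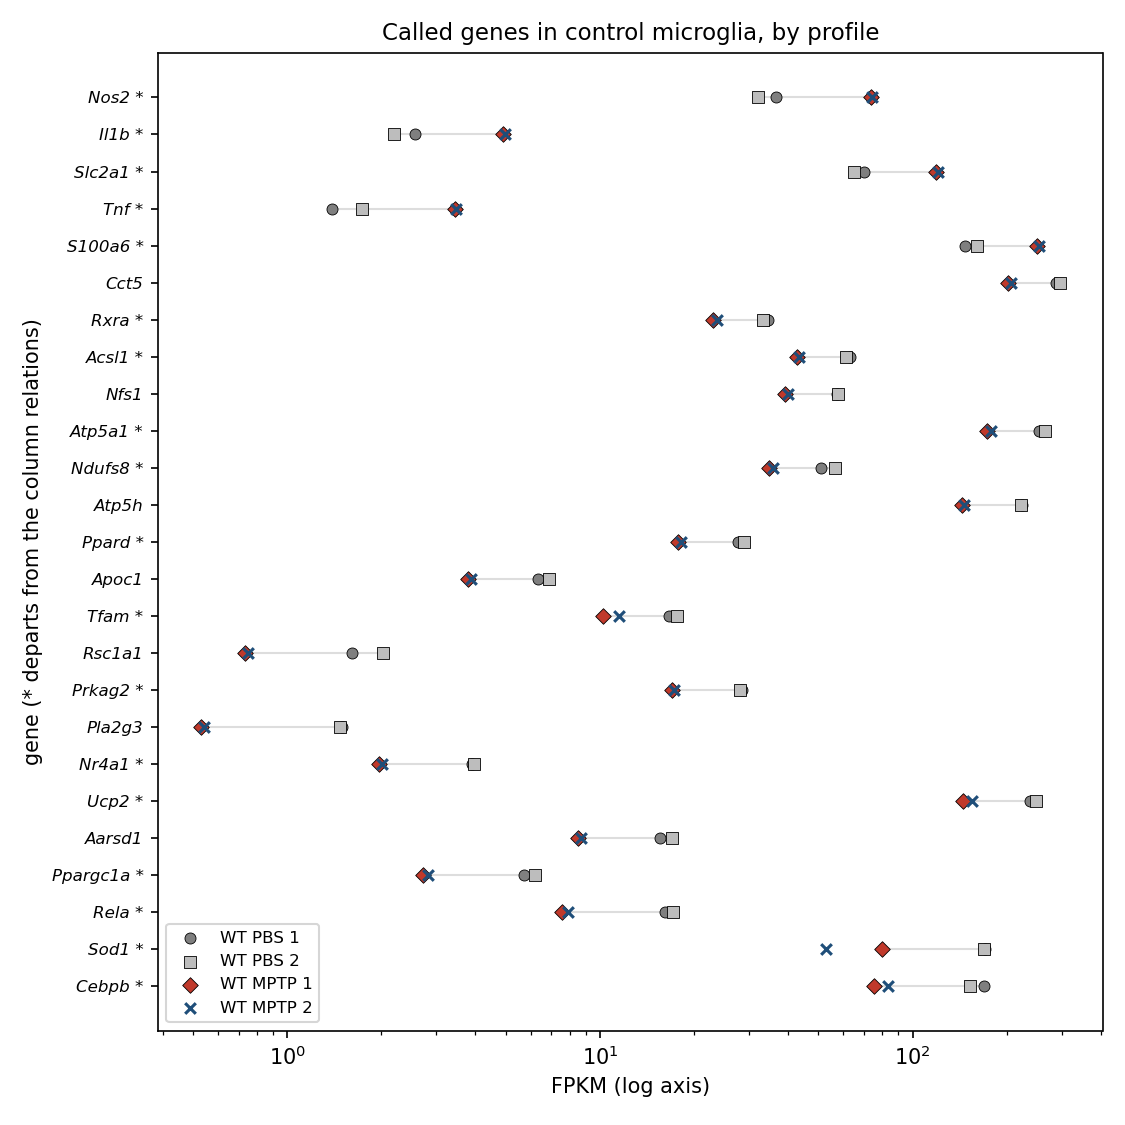
FPKM on a log axis of the 25 called genes that have a gene name, in WT PBS 1, WT PBS 2 and WT MPTP 1, with the deposited WT MPTP 2 value as a cross, and departing genes starred. The PBS pair lies close together in each row. The cross lies furthest from WT MPTP 1 for Sod1, at 53.00 against 80 FPKM. It also lies off for Tfam (11.48 against 10.2), Cebpb (83.23 against 75.13) and Ucp2 (155.28 against 144.72).

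Slc2a1, the main glucose transporter GLUT1, rose, and no glycolytic enzyme gene was called. It was at 69.77, 65.15 and 118.91 FPKM (log2 difference 0.81 ± 0.08, adjusted p = 0.00256). Hk2, which traps glucose in the cell, was at 72.65, 61.63 and 60.29 FPKM, Pgk1 at 838.07, 851.31 and 702.78, and Ldha at 1056.55, 1100.75 and 1120.25. Of 26 genes of glucose transport and glycolysis tested, 1 rose and 0 fell, against 0.0471% and 0.207% of all genes tested. In this list 13 lay above both PBS profiles and 4 below, close to the 50.1% and 13.9% of all genes tested. Hif1a, which drives glycolytic genes under low oxygen, was at 24.95, 21.43 and 25.16 FPKM.

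Sod1, the cytosolic copper-zinc superoxide dismutase, fell. It was at 170.18, 169.37 and 80 FPKM, 47.1% of the PBS mean, with a log2 difference of -1.08 ± 0.08 (adjusted p = 0.000776). Its WT MPTP 2 value was 53.00 FPKM, where 1.02 times WT MPTP 1 would be 81.60. Sod2, the mitochondrial form, was at 19.20, 19.13 and 15.38 FPKM (adjusted p = 0.776), and Gpx1, a glutathione peroxidase, at 448.89, 449.22 and 413.37. These 3 are departing genes. The other 14 tested members of the list, peroxiredoxins and thioredoxins among them, included none below both PBS profiles, against 13.9% of all genes tested. Prdx1 was at 438.79, 436.14 and 474.04 FPKM and Cat at 55.88, 52.33 and 56.06.

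Ppargc1a itself was lower after MPTP in control cells. It was at 5.70, 6.21 and 2.72 FPKM, 45.7% of the PBS mean (log2 difference -0.90 ± 0.10, adjusted p = 0.00482). Rxra and Ppard, nuclear receptors that PGC-1α coactivates, also fell. Rxra was at 34.37, 33.21 and 23.09 FPKM (adjusted p = 0.0220), and Ppard at 27.59, 28.96 and 17.80 (adjusted p = 0.010). Nrf1, a factor for nuclear genes of the respiratory chain, was at 11.24, 11.26 and 9.13 FPKM without passing. All 4 are departing genes. The 11 other tested members of the PGC-1 list included none below both PBS profiles, against 13.9% of all genes tested. Esrra, the estrogen-related receptor that partners with PGC-1α, was at 18.23, 20.35 and 19.51 FPKM, and Pprc1, a relative of the coactivator, at 9.63, 10.81 and 11.11.

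Some genes of energy sensing and fuel use also fell. Ucp2, a mitochondrial carrier of the uncoupling protein family, was at 237.67, 249.03 and 144.72 FPKM and fell (log2 difference -0.75 ± 0.08, adjusted p = 0.00482). Prkag2, a regulatory subunit of the energy sensor AMPK, was at 28.38, 28.09 and 16.97 FPKM (adjusted p = 0.00492), while Prkaa1, a catalytic subunit, was at 9.77, 8.86 and 10.32. Acsl1, which activates long-chain fatty acids, was at 63.21, 61.24 and 42.58 FPKM and fell (adjusted p = 0.0172). Acadm, which starts the oxidation of medium-chain fatty acids, was at 70.97, 71.93 and 53.89 FPKM (adjusted p = 0.102). Ucp2, Prkag2 and Acsl1 are departing genes, and Acadm is not. Cpt1a, the gate of fatty acids into mitochondria, was at 17.16, 16.43 and 17.12 FPKM. In the TCA cycle Dlat, of the pyruvate dehydrogenase complex, was at 43.98, 42.69 and 32.93 FPKM (adjusted p = 0.152), and Ogdh at 42.73, 43.54 and 33.25 (adjusted p = 0.196), whereas 14 of 20 members tested lay above both PBS profiles, against 50.1% of all genes tested. After centring, 8 lay above both and 8 below.

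Among nuclear genes for mitochondria, a few fell and most stayed near PBS. Tfam and Ndufs8, named first, are departing genes that depart in WT MPTP 2 itself. Tfam was at 16.67, 17.65 and 10.20 FPKM and fell (log2 difference -0.70 ± 0.09, adjusted p = 0.010). In complex I, Ndufs8, a subunit with iron-sulfur clusters, was at 51.07, 56.42 and 34.71 FPKM and fell (adjusted p = 0.0148), and of the 37 members tested 16 lay above both PBS profiles and 3 below, against 50.1% and 13.9% of all genes tested. In complex IV 0 of 22 members were called, with Cox6c, a departing gene, at 252.12, 271.43 and 206.36 FPKM (adjusted p = 0.582). ATP synthase had 2 of 17 members called, both lower, against 0.207% of all genes tested called lower. Atp5h, a stalk subunit that follows the column relations, was at 224.57, 222.88 and 143.62 FPKM (log2 difference -0.64 ± 0.08, adjusted p = 0.010). Atp5a1, the catalytic-head α subunit and a departing gene, was at 254.06, 265.98 and 172.83 FPKM (adjusted p = 0.0172). Atp5e was similar in size at 249.59, 292.65 and 179.91 FPKM, but its PBS pair was wider and it did not pass (adjusted p = 0.0687). Atp5b, the β subunit, was at 719.56, 647.57 and 555.93 FPKM, and 8 of the 17 members lay above both PBS profiles and 6 below (again against 50.1% and 13.9%), such as Atp5f1 at 265.32, 271.10 and 286.52.

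Genes of the mitochondrial genome lay on the opposite side. All 13 were above both PBS profiles, where 50.1% of genes tested were, with a median log2 difference of 0.29, and 0 of 13 passed the test. mt-Nd1, a complex I subunit, was at 1811.33, 2356.08 and 2940.65 FPKM (adjusted p = 1). mt-Cytb, of complex III, was at 1543.60, 1663.04 and 1950.78 FPKM, and mt-Co1, of complex IV, at 6057.06, 5731.87 and 6542.46. The PBS pair differed widely for mt-Nd1, mt-Nd2 and mt-Nd3 and less for the others. None of the 13 is a departing gene. After centring all 13 were still above both PBS profiles (median 0.24), and with quantile normalization 9 were (median 0.18). Reads of these genes cannot be told from those of nuclear copies where the counting is not given.

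**Figure D3:**
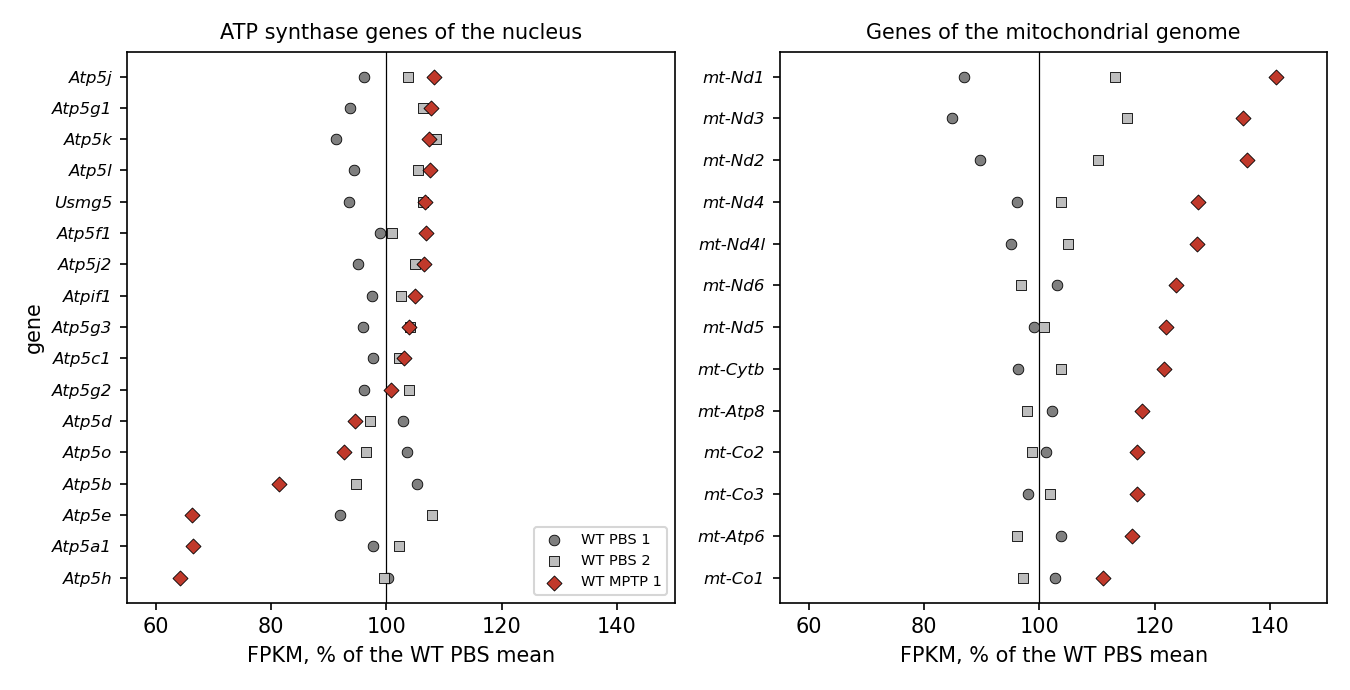
FPKM as percent of the WT PBS mean in WT PBS 1, WT PBS 2 and WT MPTP 1, for 17 nuclear genes of ATP synthase (left) and 13 genes of the mitochondrial genome (right). Atp5h, Atp5a1 and Atp5e lie far below both PBS profiles, and every mitochondrial gene lies above them.

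Outside the departing genes, 9 genes fell and 0 rose by limma. Of the 9, 2 are predicted genes and are not named. Being under 1 FPKM in WT MPTP 1, 4 of the 9 were tested through both PBS columns alone, as were 35 genes in all. Aarsd1, a relative of alanyl-tRNA synthetase with an editing domain, was at 15.52, 16.99 and 8.54 FPKM, 52.5% of the PBS mean (log2 difference -0.85 ± 0.09, adjusted p = 0.00473). It was the only 1 of 37 genes listed as aminoacyl-tRNA synthetases to be called, where 0.207% of all genes tested were called lower. In that list 23 lay above both PBS profiles, against 50.1% of all genes tested. Nfs1, the cysteine desulfurase that starts iron-sulfur cluster assembly, was at 57.41, 57.82 and 39.14 FPKM (adjusted p = 0.0148). Cct5, a subunit of the CCT chaperonin that folds actin and tubulin, was at 287.31, 295.38 and 201.90 FPKM (adjusted p = 0.0340). Of the other 7 subunits 6 lay above both PBS profiles and Cct3 below, against 50.1% and 13.9% of all genes tested. Cct3 was at 172.57, 179.95 and 165.58 FPKM.

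The other 3 named genes were expressed at low levels. Apoc1, an apolipoprotein, was at 6.34, 6.88 and 3.78 FPKM (adjusted p = 0.0220), beside Apoc2 at 6.45, 6.62 and 5.42. Pla2g3, a secreted phospholipase, was at 1.5, 1.48 and 0.53 FPKM (adjusted p = 0.0116). Rsc1a1, a regulator of solute carriers, was at 1.61, 2.03 and 0.73 FPKM (adjusted p = 0.0334). With the MPTP value under 1 FPKM, both were tested through the PBS columns, whereas the 47 genes at 1 FPKM or more in WT MPTP 1 alone were left out, so the filter allowed such falls and not the matching rises. With 1 FPKM in any 1 of the 3 columns, a setting added after the data were seen, limma called 6 genes higher and 21 lower, and 26 of these 27 were among those called before. Within the named genes of this kind 1 deposited row held most of the difference. For Atp5h the largest row was at 163.58, 173.53 and 81.65 FPKM, while its next row was at 53.42, 44.20 and 54.46. For Cct5 the largest row was at 282.21, 289.38 and 196.10 FPKM. With the row of highest mean taken per gene in place of the sum, limma called 0 genes in either direction, and 331 genes had an unadjusted p under 0.05.

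A wider count used only distance, with no test. WT MPTP 1 was at least 0.3 log2 units above both PBS profiles in 19 genes (0.179%) and at least 0.3 below both in 42 (0.396%), and 21 of these 61 genes were departing genes. Among those that follow the relations and were not called were Kctd12 at 5.64, 5.64 and 7.23 FPKM and Slc27a4, a fatty acid transporter, at 8.44, 8.84 and 5.75. Another was Ppp1r15a, which ends the stress block on translation, at 16.54, 16.21 and 12.83. Its largest row was at 14.31, 12.82 and 12.64 FPKM (log2 difference -0.093), and a smaller row was at 1.89, 3.11 and 0. Hsp90ab1, a constitutive chaperone, was at 1651.82, 1635.39 and 1310.60 FPKM. Lpin2 was at 24.26, 194.78 and 14.31 FPKM and Acsl3 at 152.71, 17.19 and 13.21, so their large differences rest on 1 PBS profile each. Without WT PBS 1 or WT PBS 2 the counts were 57 and 98 higher, and 77 and 99 lower.

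Many genes of protein turnover and the cytoskeleton lay slightly above both PBS profiles, and none passed the test. Of 32 proteasome genes tested 25 lay above both PBS profiles and 0 below, with a median log2 difference of 0.08. Psmd11 was at 23.90, 25.97 and 27.81 FPKM. Of 21 cytoskeleton genes 17 lay above both and 0 below, with Actb at 1171.27, 1201.82 and 1396.54 FPKM. Cytosolic ribosomal protein genes had 48 of 83 above both and 1 below, and mitochondrial ribosomal protein genes 45 of 74 and 0. These counts stand beside 50.1% above and 13.9% below for all genes tested, which became 28.2% and 29.1% after centring. After centring, proteasome genes had 17 above and 0 below, cytoskeleton genes 11 and 2, cytosolic ribosomal protein genes 24 and 1, and mitochondrial ribosomal protein genes 25 and 6.

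**Figure D4:**
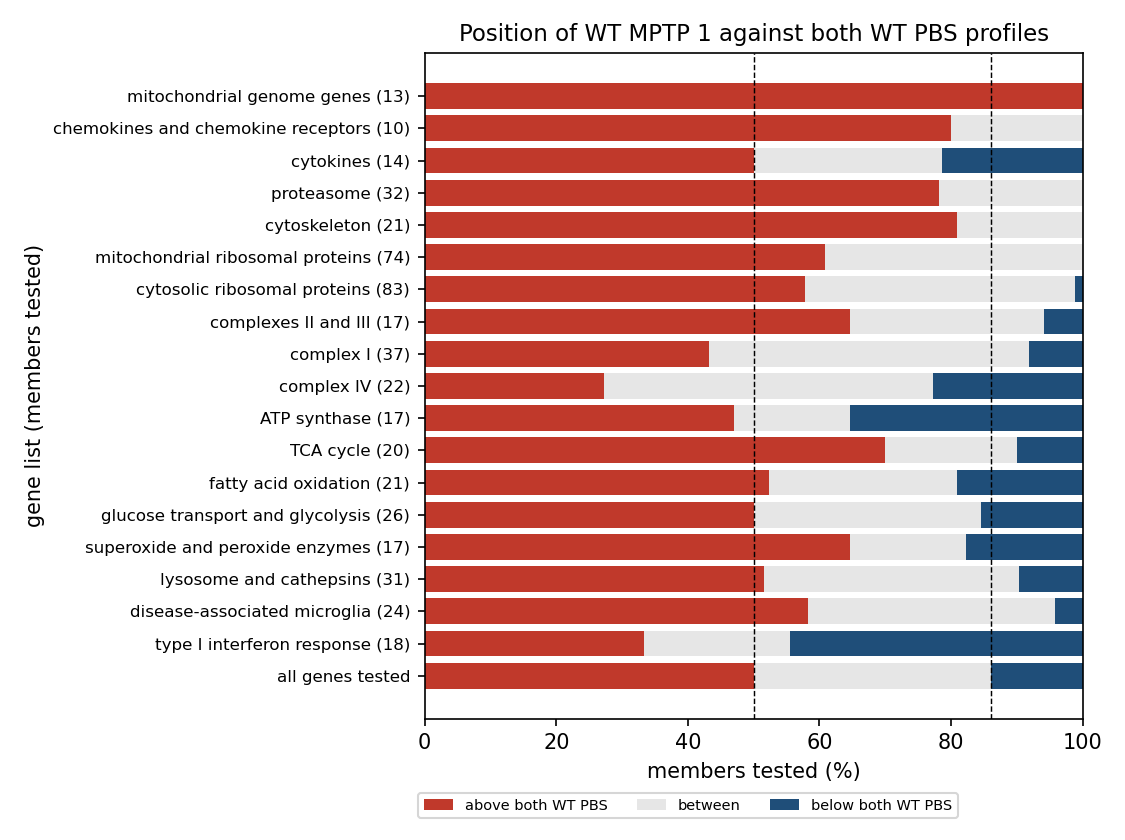
Share of the tested members of each gene list for which WT MPTP 1 lay above both WT PBS profiles, between them or below both, with the number tested in brackets and dashed lines at the shares for all genes tested (50.1% above, 13.9% below). Mitochondrial genome genes are all above, and type I interferon genes have the largest share below among the lists drawn.

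Whether MPTP acted differently in Ppargc1a-deficient cells was tested as the difference between KO MPTP 2 minus KO PBS 1 and WT MPTP 1 minus the WT PBS mean, since KO MPTP 1 and KO PBS 2 hold 1 profile under both treatments. Each group other than WT PBS then holds 1 profile, so the spread came from the WT PBS pair alone and the other profiles were assumed to vary like it. Under that assumption 8 genes were called (0.0754%), and 552 genes had an unadjusted p under 0.05. Of the 8, 4 were named genes that fell in control cells, and a further 1 was a predicted gene that fell (difference of log2 effects 1.79). That predicted gene and Pla2g3 were tested through the WT PBS columns alone. Cebpb was at 55.86 FPKM in KO PBS 1 and 57.06 in KO MPTP 2 (difference of log2 effects 1.12, adjusted p = 0.0196). Cct5 was at 114.22 and 192.93 FPKM (difference 1.28, adjusted p = 0.00949). Aarsd1 was at 7.11 and 8.23 FPKM (difference 1.04, adjusted p = 0.0407), and Pla2g3 at 0.57 and 1.07 (difference 1.10, adjusted p = 0.0273). The profile left out, KO PBS 2, was at 191.4 FPKM for Cct5 and 8.56 for Aarsd1, close to KO MPTP 2 in both, so these differences rest on KO PBS 1. With KO PBS 2 added as KO PBS, after the data were seen, the adjusted p of the difference was 0.558 for Cct5, 0.0747 for Aarsd1, 0.017 for Cebpb and 0.0215 for Pla2g3. In the 6-profile fit the fall of Cct5 in control cells did not pass either (adjusted p = 0.995). In each of these 4 genes KO PBS 1 was already lower than both WT PBS profiles. That comparison uses the same WT PBS profiles as the MPTP comparison. KO PBS 1 was also below both in genes that were not called, such as Apoe (2996.6 against 3159.1 and 3255.7 FPKM). In mt-Nd1 it was above both (2459.3 against 1811.3 and 2356.1 FPKM). The share of all genes tested with KO PBS 1 below both was not counted.

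The 5 genes that rose in control cells were all higher in KO MPTP 2 than in KO PBS 1, as were 86.5% of all genes tested, so the direction alone is near the background. None of their differences between genotypes passed. Slc2a1 was at 85.23 FPKM in KO PBS 1 and 227.15 in KO MPTP 2 (adjusted p of the difference 0.200), and Nos2 at 40.81 and 66.62 (adjusted p = 0.760). Il1b was at 2.79 and 5.81 FPKM, and S100a6 at 142.93 and 242.61. Of the 22 genes that fell in control cells, 12 were lower in KO MPTP 2 than in KO PBS 1, against 13% of all genes tested. All of the 12 but Rsc1a1 are departing genes. Sod1 went from 134.89 to 41.39 FPKM (adjusted p of the difference 0.154) and Rela from 15.35 to 6.74. For Atp5h, Nfs1 and Apoc1 the deficient profiles were alike, at 128.93 and 141.33, 35.80 and 38.31, and 2.71 and 2.74 FPKM. KO PBS 1 was again below both WT PBS profiles, as it was in some genes that were not called. The adjusted p of the difference was 0.0806 for Atp5h, 0.112 for Nfs1 and 0.231 for Apoc1.

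**Figure D5:**
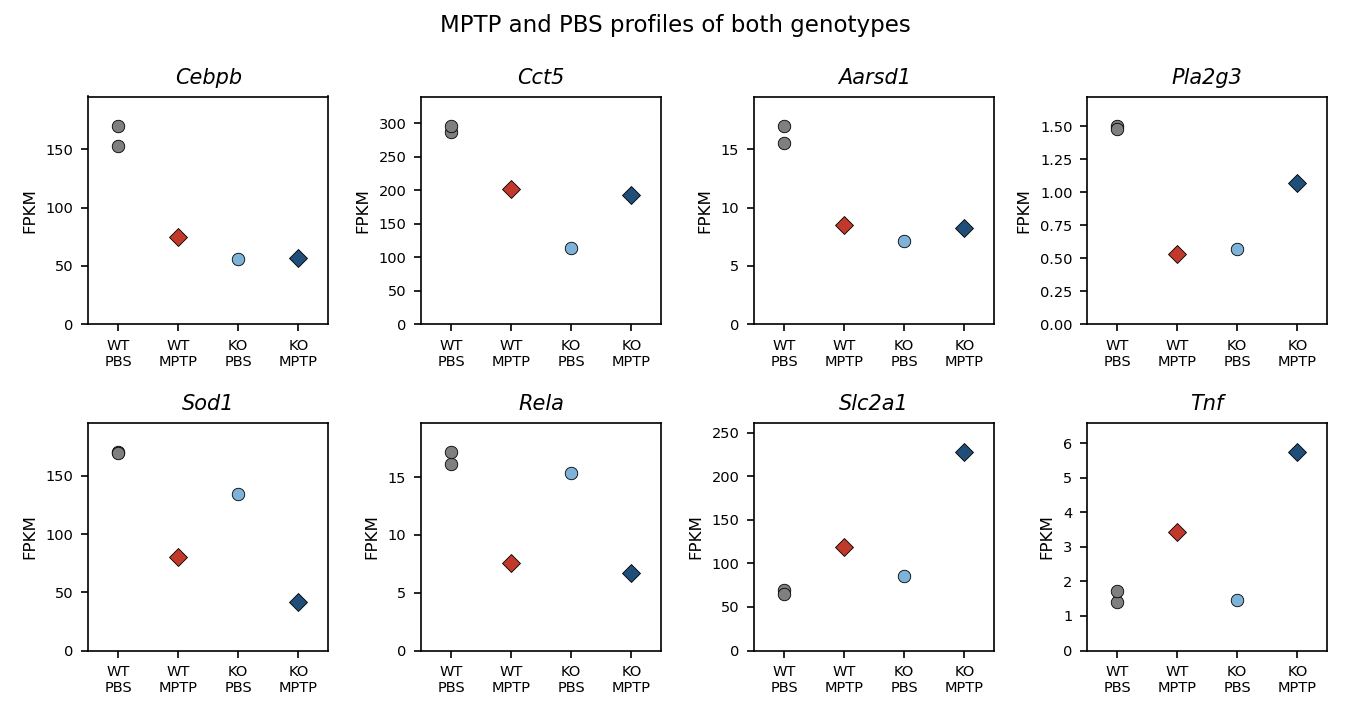
FPKM of 8 called genes in the WT PBS pair, WT MPTP 1, KO PBS 1 and KO MPTP 2, with each axis starting at 0. KO PBS 1 lies below both WT PBS profiles for Cebpb, Cct5, Aarsd1 and Pla2g3, whereas Rela falls and Tnf rises in both genotypes. KO PBS 1 was also below both in some genes that were not called, and their share was not counted.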

How the data were processed

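RNA-seq of microglia sorted from midbrain was deposited as 1 table of 67355 rows and 12 columns. The submitters' processing notes name the tools CASAVA 1.5, TopHat, Bowtie 0.12.7 and Cufflinks and the mm9 build, without a role or order. The deposited values carry no unit in the header and were taken as FPKM, which Cufflinks writes. The depth of the libraries is unknown, and counting errors could not be computed. Annotation, filters and strand are not given in the sources used. Rows of the same symbol were added up, and 1 row with a text cell was left out. Of 21125 genes, 20673 matched a reference symbol or synonym.

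Groups came from the sample titles. WT PBS 1, WT PBS 2 and WT MPTP 1 were compared on log2(FPKM + 1), which understates changes of low genes, with limma 3.58.1 in R 4.3.3 (lmFit, eBayes with trend) and Benjamini-Hochberg adjustment over 10609 genes. The fit had 1 residual and 8.95 prior degrees of freedom. The difference between genotypes was fitted on 5 profiles in the same way. Departures from a column relation were counted beyond 0.0101 FPKM (0.00995 for the third columns), the size that rounding allows. The procedure was run on 10 simulated draws in which 200 of 10609 genes were changed in 1 profile. Changes of 1 and 0.5 log2 units were called in 100% and 84.1% of cases, with a mean of 8.9 false calls. All simulated profiles were given the spread of the WT PBS pair. The draws therefore cannot test the assumption that the MPTP profile varies like that pair.

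Named genes were those called, then up to 10 rises and 10 falls at least 0.3 outside both PBS profiles with a mean of at least 5 FPKM that follow the column relations, then up to 4 such members of each of 49 gene lists, or the 2 of highest mean. Predicted genes were counted and not named. Other list members were named after their values were seen, as examples. The members and lists were chosen with earlier results of these data known. Alternatives were pseudocounts of 0.5 and 0.1, no filter, a filter at 5 FPKM, median centring, quantile normalization, 1 row per symbol, departing genes left out, WT MPTP 2 as the treated profile, no trend, fits with KO profiles, 6 WT columns as libraries, and each PBS profile left out. A filter of 1 FPKM in any 1 of the 3 columns, and KO PBS 2 in the test between genotypes, were added after the data were seen. Promoter sequences came from RefSeq on GRCm38.p6, matched by symbol. The reference genome was of another build than the table, so no coordinates of deposited rows are given.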

Additional observations from a re-analysis of the deposited data

Results flagged for a closer look

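Among the named genes, 4 passed limma's test of a difference in MPTP effect between deficient and control cells, and all 4 fell in control cells. Every group except WT PBS holds 1 profile, so the spread came from the WT PBS pair alone and the same variation was assumed for each lone profile. The difference of the log2 effects, KO minus WT, was 1.28 for Cct5 (1.278 before rounding), 1.10 for Pla2g3 (1.101), 1.04 for Aarsd1 and 1.12 for Cebpb (1.121). With KO PBS 2 added as a second KO PBS profile, after the data were seen, Cebpb and Pla2g3 passed and Cct5 (adjusted p = 0.558) and Aarsd1 (0.0747) did not. With no filter, with quantile normalization and with 1 row per symbol, limma called 0 genes for this difference, and 1364, 347 and 412 genes had an unadjusted p under 0.05. The groups held at most 2 separate profiles, so none could be examined for a sample far from the rest.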

How the results depend on the processing

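Of 659 single-gene values under the alternatives, over 43 genes, 498 kept their direction and side of the threshold, 41 passed only under the alternative, 120 no longer passed, and 0 reversed. Against 5 genes higher and 22 lower, limma gave 0 and 0 with no filter (1159 genes at an unadjusted p under 0.05), 0 and 1 with quantile normalization, 0 and 0 with 1 row per symbol, 0 and 4 with departing genes left out, and 2116 and 167 with 6 WT columns taken as libraries, which counts computed columns as replicates. Leaving out a PBS profile gave 3 to 11 higher and 7 to 11 lower, with the spread then taken from KO PBS 1 and KO PBS 2. Against 19 genes at least 0.3 above both PBS profiles there were 30 and 43 with pseudocounts of 0.5 and 0.1, 29 with no filter, 8 with a filter at 5 FPKM, 12 with centring, 12 with quantile normalization, 61 with 1 row per symbol, 12 with departing genes left out, 32 with WT MPTP 2, and 57 to 98 without a PBS profile. Against 42 below both there were 67 with a pseudocount of 0.1, 73 with 1 row per symbol and 77 to 99 without a PBS profile. Against 8 genes that differed between genotypes there were 0 with no filter, 20 with a filter at 5 FPKM, 0 with quantile normalization, 0 with 1 row per symbol and 4 with KO PBS 2 added as KO PBS, of which 3 were among the 8. Beyond the smaller sets of genes or profiles, the cause was not tested. No paired analysis was possible because the separate profiles of WT PBS and WT MPTP share only 1 replicate number. The lack of a second MPTP profile and the unknown depth limit every value.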

Other observations

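Between rows of 1 gene, 1 row had at least 5 FPKM in both PBS profiles and 0 in WT MPTP 1. It belonged to Hsp90aa1, an inducible chaperone gene, and was at 6.93, 8.86 and 0 FPKM, while the gene summed to 575.61, 570.72 and 522.28. In the opposite direction there were 0 rows. For Tfam, 1 row was at 12.21, 13.28 and 4.74 FPKM, while another was at 4.11, 4.13 and 4.29 and a further row at 0, 0 and 1.10.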
